A study of Bos taurus with 16 samples.

Results

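The 6 genes examined here belong to the machinery that moves sodium and water into the blastocyst cavity, and were followed in bovine oocytes and embryos developed in vivo. They are the sodium pump beta subunit genes ATP1B1, ATP1B2 and ATP1B3 and the aquaporin genes AQP3, AQP8 and AQP11. They were chosen by name as known genes of cavitation, and the locus with the highest mean was taken where a name had several loci. All 6 genes were found among the 27393 loci of the data. The samples were 16 individual oocytes or embryos of Bos taurus, with 2 at each of 8 stages: mature oocyte (MII), 2-cell (2C), 4-cell (4C), 8-cell (8C), 16-cell (16C), early morula (EM), compact morula (CM) and blastocyst (BL). No group was treated, and the stage was the only label that differed between samples. The RNA of each sample was amplified in 2 rounds before sequencing, so the stages are compared as relative transcript abundance in whole embryos. In such samples, fewer cells with a transcript and less of it in each cell cannot be told apart. Levels are given as CPM, the reads of a gene for each 1000000 reads of the sample.

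The sodium pump, Na,K-ATPase, exchanges sodium for potassium across the cell membrane. Its alpha subunit carries out the transport and splits ATP, and its glycosylated beta subunit is needed for the pump to fold and reach the membrane. In the outer epithelium of the embryo, the trophectoderm, pumps in the basolateral membrane drive sodium toward the cavity. Water follows, in part through aquaporins, and the blastocoel fills while tight junctions seal the epithelium. ATP1B1, ATP1B2 and ATP1B3 encode beta subunit isoforms. AQP3 encodes an aquaglyceroporin that passes water and glycerol, AQP8 a channel for water and ammonia, and AQP11 a divergent aquaporin found on intracellular membranes.

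Between 607672 and 3379426 reads were available per sample. A count of 3 reads, taken as the detection floor, corresponded to between 0.888 and 4.94 CPM. Both this floor and the intervals on reads take in counting error alone, because copies made in the amplification are not marked. Nothing in the labels says whether the 2 samples of a stage came from separate animals, so p-values measure the spread between these samples. Gene lengths were not used here, and levels are therefore compared between stages within a gene and not between genes. Of the 6 members, 4 had reads and passed the filter on low values, and ATP1B2 and AQP8 had none.

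ATP1B1 was abundant in oocytes and early cleavage embryos and nearly gone from the 8-cell stage on. Its level was 450.2 and 531 CPM in the 2 MII oocytes, 442 and 301 CPM in the 2C embryos, and 445 and 473 CPM in the 4C embryos. It was then 12.4 and 7.70 CPM in the 8C embryos, 9.27 and 21.4 CPM in the 16C embryos, and 13.9 and 6.64 CPM in the early morulae. The 2 compact morulae had 6.15 and 14.3 CPM, and the blastocysts 18.7 and 22.0 CPM. The lowest of the 6 samples up to the 4-cell stage was thus far above the highest of the 10 later ones. The order of the stage means was MII (491 ± 57.2 CPM, SD, n = 2), 4C (459 ± 19.8), 2C (371 ± 99.7), BL (20.3 ± 2.37), 16C (15.3 ± 8.57), EM (10.3 ± 5.12), CM (10.2 ± 5.75) and 8C (10.03 ± 3.31). In CPM, MII and 4C overlapped, as did each neighbour among the 5 stages from BL down to 8C in this order. On the deposited scale, by contrast, both MII oocytes (938 and 1289) were above both 4C embryos (591 and 625.4). The 19 and 15 reads in the blastocysts are few, whereas each sample up to the 4-cell stage held at least 641 reads.

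ATP1B3, the second of the 3 beta subunit members, had the reverse course. It was at or under 2.46 CPM in all 6 samples up to the 4-cell stage, with 12 reads in those samples together. Its level was 28.5 and 24.0 CPM in the 8C embryos, 57.9 and 110.3 CPM in the 16C embryos, 77.6 and 72.5 CPM in the early morulae, and 92.3 and 67.1 CPM in the compact morulae. The 2 blastocysts held 146 and 145 CPM, the highest values of the series for this gene. By stage mean the order was BL (145.8 ± 0.734 CPM), 16C (84.1 ± 37.0), CM (79.7 ± 17.8), EM (75.1 ± 3.60), 8C (26.3 ± 3.12), 4C (1.23 ± 1.74), 2C (0.925 ± 0.366) and MII (0.662 ± 0.317). BL did not overlap 16C, EM did not overlap 8C, and 8C did not overlap 4C. The stages 16C, CM and EM overlapped their neighbours, as did 4C, 2C and MII.

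ATP1B2, the beta isoform best known from glia, was listed at 0 in all 16 samples. A count of 0 among 23342921 reads over all samples allows up to 0.129 CPM if reads on the locus were counted. A listed 0 need not mean that, since 9075 of the 27393 loci had no read in any sample, and BMP15, a gene of the oocyte, was listed at 0 within a run of 2578 consecutive loci at 0. ATP1B2 stood alone at 0 between loci with reads. It gave no value for any test.

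AQP3 was first seen at the 4-cell stage. No read fell on it in the 2 MII oocytes and the 2 2C embryos, and the 4C embryos held 1 and 4 reads (0.694 and 2.46 CPM). Its level was 17.3 and 20.2 CPM in the 8C embryos, 12.4 and 51.0 CPM in the 16C embryos, and 27.0 and 62.6 CPM in the early morulae. The compact morulae had 41.0 and 41.4 CPM and the blastocysts 32.4 and 13.2 CPM. Every sample from the 8-cell stage on was above every earlier one, and at 16C and at EM the 2 embryos of the stage differed by more than the means of the stages from 8C to BL did. The order of the means was EM (44.8 ± 25.2 CPM), CM (41.2 ± 0.284), 16C (31.7 ± 27.3), BL (22.8 ± 13.6), 8C (18.8 ± 2.03) and 4C (1.58 ± 1.25), with MII and 2C at 0. From EM to 8C each stage overlapped the next in this order, and 8C did not overlap 4C.

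AQP11 had the lowest read totals among the members that were detected, with 260 reads over all samples. Between 0 and 4 reads fell on it in each sample up to the 4-cell stage, corresponding to at most 1.75 CPM. It was at 14.8 and 12.5 CPM in the 8C embryos, 15.5 and 21.4 CPM in the 16C embryos, 16.3 and 42.1 CPM in the early morulae, 30.8 and 15.0 CPM in the compact morulae and 30.4 and 22.0 CPM in the blastocysts. All 10 later samples lay above all 6 earlier ones. By mean the stages were ordered EM (29.2 ± 18.2 CPM), BL (26.2 ± 5.96), CM (22.9 ± 11.1), 16C (18.4 ± 4.20), 8C (13.7 ± 1.66), MII (1.54 ± 0.299), 4C (0.347 ± 0.491) and 2C (0.148 ± 0.209). EM, BL, CM and 16C overlapped in turn, while 16C and 8C did not, nor did 8C and MII or MII and 4C.

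AQP8 has 2 loci in the data, and both were listed at 0 in all 16 samples. The first lies in a run of 5 consecutive loci at 0. The same limit of 0.129 CPM applies if these loci were counted, which the data do not show. The plot of levels by stage shows the 4 members with reads.

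**Figure D1:**
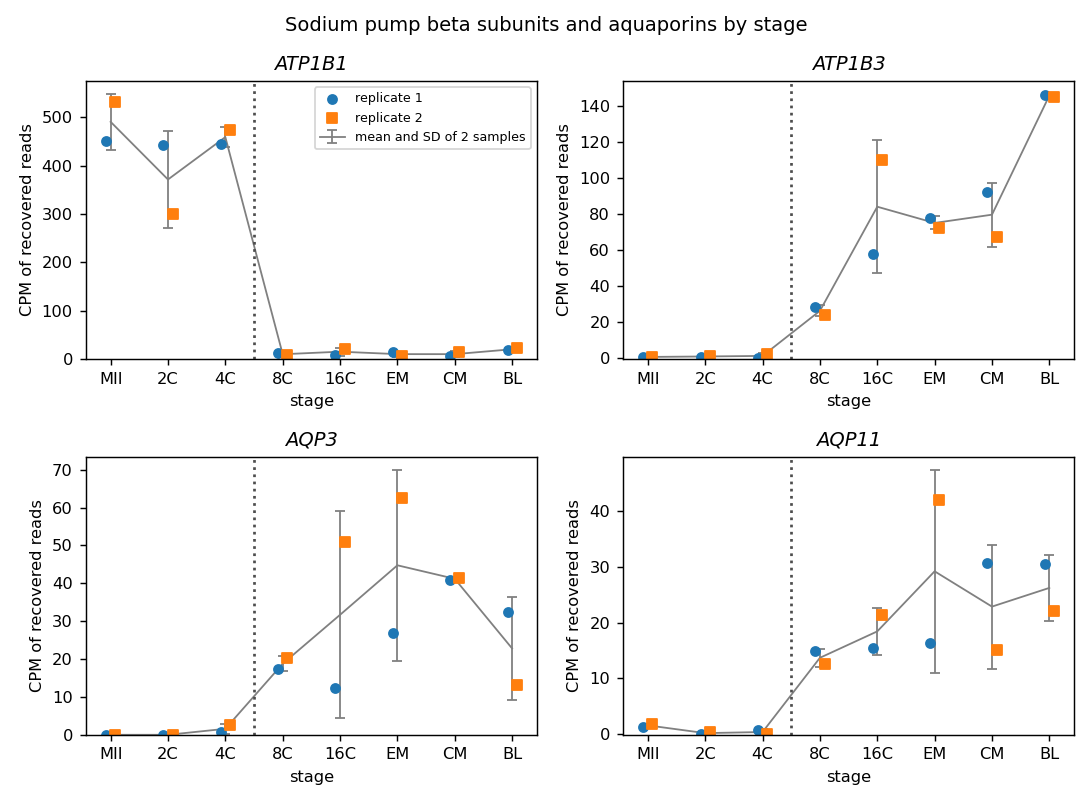
Level in CPM of recovered reads (vertical axes, linear, one scale per gene) of ATP1B1, ATP1B3, AQP3 and AQP11 at 8 stages (horizontal axes); circles and squares are replicates 1 and 2, and the line joins the stage means with SD bars (n = 2). ATP1B1 fell from 459 ± 19.8 CPM at 4C to 10.03 ± 3.31 CPM at 8C across the dotted line, where the other 3 genes rose.

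The effect of stage was tested for each locus with limma on the log2 of the deposited value plus 1, adjusted by Benjamini-Hochberg over 9670 loci kept. All 4 members tested passed, with adjusted p of 7.2e-07 for ATP1B1, 2.5e-06 for ATP1B3, 2.2e-05 for AQP3 and 7.1e-05 for AQP11. Passing was common, since 66.7% of all loci tested had a stage effect, and ATP1B3, AQP3 and AQP11 came through the filter on low values by their later stages alone.

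Among the 7 steps from a stage to the next, the members changed at the step from 4C to 8C, which the study takes as the embryonic genome activation (EGA) of in vivo embryos. ATP1B1 fell and ATP1B3, AQP3 and AQP11 rose, so that 3 of the 4 members tested were higher and 1 was lower, beside 17.7% of all loci higher and 19.1% lower at this step. As ATP1B3, AQP3 and AQP11 came through the filter by their later stages alone, the filter favoured a rise here, and the 3 of 4 is no independent result. For ATP1B1, 1411 reads in the 4C embryos compared with 18 in the 8C embryos, a ratio of read shares of 0.0212 (95% exact binomial interval 0.0125 to 0.0336). On the limma scale this was a log2 change of -5.45 (SE 0.62, adjusted p = 2.6e-05). ATP1B3 went from 4 to 48 reads, a ratio of 19.9 (7.29 to 76.1), with a log2 change of 4.11 (SE 0.69, limma adjusted p = 5.0e-04). AQP3 went from 5 to 35 reads, 11.6 times the share (4.53 to 38.0), with a log2 change of 3.17 (SE 0.76, limma adjusted p = 0.0051). AQP11 went from 1 to 25 reads, a ratio of 41.5 with a wide interval of 6.79 to 1704, and a log2 change of 3.77 (SE 0.71, limma adjusted p = 0.0011). Fold changes on the log2(value + 1) scale understate the change of genes with few reads. The median log2 change was 3.47 over the 4 members, which mixes both directions, and -0.08 over all loci tested.

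These calls rested on the spread shared by all 8 stages. In a fit of the 4C and 8C samples alone, ATP1B1 and AQP11 passed, while ATP1B3 (limma adjusted p = 0.074) and AQP3 (limma adjusted p = 0.068) did not, and AQP3 also missed the threshold without 4C replicate 1 (log2 change 2.59, limma adjusted p = 0.059).

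No other step passed for any of the 4 members, so that 4 of 28 tests were calls. From MII to 2C, ATP1B1 differed by -1.31 (log2, SE 0.62, limma adjusted p = 0.31) and AQP11 by -1.93 (SE 0.71, limma adjusted p = 0.17), beside 1.20% of loci higher and 0.217% lower. The size depended on the scaling, and with samples scaled by total reads the ATP1B1 difference was -0.42 (limma adjusted p = 0.78) and that of AQP11 -1.36 (limma adjusted p = 0.33). AQP11 had 7 reads in the MII oocytes and 1 in the 2C embryos. ATP1B3 differed by 1.42 from 8C to 16C (SE 0.69, limma adjusted p = 0.30), where 0.548% of loci were higher and 0.310% lower. AQP3 differed by 1.52 from 2C to 4C (SE 0.76, limma adjusted p = 1), a step at which 0% of loci were called in either direction. From 16C to EM, 0.0207% of loci were higher and 0.0827% lower, and from EM to CM 0% in either direction.

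**Figure D2:**
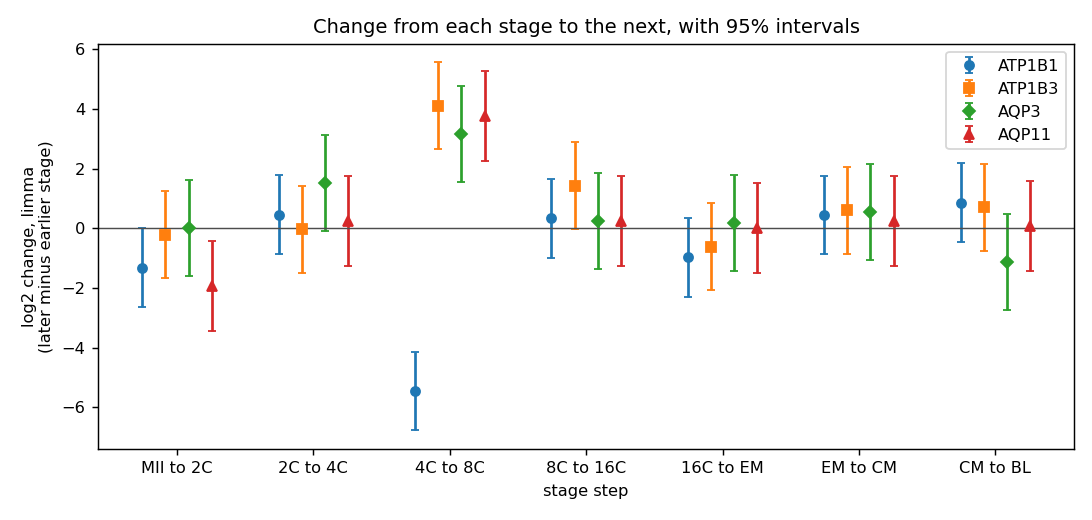
Change in log2(deposited value + 1) from each stage to the next (vertical axis, later minus earlier stage, limma) for ATP1B1, ATP1B3, AQP3 and AQP11, at the 7 steps on the horizontal axis; bars are 95% intervals. At 4C to 8C, ATP1B1 is at -5.45 and the other genes lie between 3.17 and 4.11, and no other step passed the threshold for these genes.

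Comparison of the 6 samples up to the 4-cell stage with the 10 later ones gave the same 4 genes. In this comparison too, ATP1B3, AQP3 and AQP11 came through the filter by their later samples alone, so the filter favoured a rise and their calls and non-overlap add no independent result. ATP1B1 was 440.4 ± 76.0 CPM before and 13.2 ± 5.92 CPM after the step, 33.3-fold lower (log2 change -5.54, SE 0.38, limma adjusted p = 1.4e-10). ATP1B3 was 0.939 ± 0.846 CPM before and 82.2 ± 42.4 CPM after, 87.6-fold higher (log2 change 5.17, SE 0.43, limma adjusted p = 1.6e-09). AQP3 was 0.525 ± 0.987 CPM before and 31.8 ± 16.9 CPM after, 60.6-fold higher (log2 change 4.48, SE 0.44, limma adjusted p = 2.1e-08). Of its 5 earlier reads, 4 were in 4C replicate 2, and without that embryo the fold was 229, from a mean of 0.139 CPM before. AQP11 was 0.679 ± 0.727 CPM before and 22.1 ± 9.53 CPM after, 32.5-fold higher (log2 change 3.61, SE 0.43, limma adjusted p = 2.6e-07). The samples of the 2 periods did not overlap in any of the 4 genes, beside 18.4% of the 6910 loci kept with every later sample higher and 9.70% with every later sample lower. By limma, 36.9% of these loci were higher and 29.9% lower after the step. The median log2 change over all those loci was 0.23 on the deposited scale and 0.67 when samples were scaled by total reads, and no member changed direction under either scale.

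ATP1B1 and ATP1B3 were also compared within each sample, as the log2 ratio of their reads with 1 read added to each. This ratio needs no scaling between samples. Gene length cancels in its change between stages but not in its sign, which ranks reads and not transcript levels. It ranged from 7.27 to 9.33 in the 6 samples up to 4C (mean 8.38 ± 0.823) and from -3.70 to -1.13 in the 10 later ones (mean -2.47 ± 0.769). The difference was -10.85. No p is given for it, because each of the 2 genes already separated these samples, in opposite directions, and the ratio then had to separate them too. The 2 8C embryos, at -1.13 and -1.53, were the highest of the later samples, and the lowest was compact morula replicate 1, at -3.70.

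**Figure D3:**
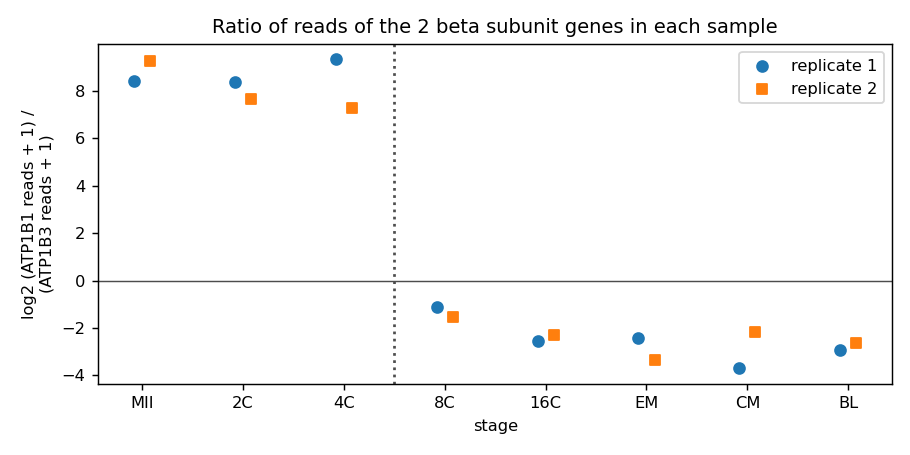
Log2 ratio of ATP1B1 reads to ATP1B3 reads, each plus 1 (vertical axis), in each sample at 8 stages (horizontal axis); circles and squares are replicates 1 and 2. The 6 samples before the dotted line lie between 7.27 and 9.33 and the 10 after it between -3.70 and -1.13.

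The cavity forms between the compact morula and the blastocyst, and at this step none of the 4 members passed the test, beside 2.92% of all loci higher and 1.50% lower. The count was 0 of 4 by limma, edgeR and DESeq2, also at an unadjusted p under 0.05. In a limma fit of the 2 stages alone it was 0 of 4 after adjustment, and 1, ATP1B3 (adjusted p = 0.21), was under 0.05 unadjusted. ATP1B3 was 79.7 ± 17.8 CPM in the compact morulae and 145.8 ± 0.734 CPM in the blastocysts, with both blastocysts above both compact morulae (log2 change 0.71, SE 0.69, 95% interval -0.75 to 2.17, limma adjusted p = 0.66). ATP1B1 was also higher in both blastocysts than in both compact morulae (log2 change 0.87, SE 0.62, 95% interval -0.45 to 2.18, limma adjusted p = 0.51). AQP3 was lower in both blastocysts (log2 change -1.13, SE 0.76, 95% interval -2.74 to 0.48, limma adjusted p = 0.47). AQP11 overlapped between the 2 stages (log2 change 0.09, SE 0.71, 95% interval -1.41 to 1.59, limma adjusted p = 1). The intervals include no change as well as changes over 2-fold, so at 2 samples a stage the step was not resolved for these genes. With both samples of a stage pooled, the ratio of read shares, blastocyst over compact morula, was 1.88 for ATP1B3 (1.55 to 2.29), 1.83 for ATP1B1 (1.07 to 3.17), 0.599 for AQP3 (0.407 to 0.869) and 1.26 for AQP11 (0.828 to 1.92). These intervals compare the pooled libraries and leave out the spread between embryos.

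Relative to the average of the 7 stages before them, the blastocysts were higher in ATP1B3 and AQP11 and lower in ATP1B1, beside 18.3% of all loci higher and 11.6% lower. The log2 difference was 3.33 for ATP1B3 (SE 0.52, limma adjusted p = 4.5e-04), 1.85 for AQP11 (SE 0.53, limma adjusted p = 0.018) and -1.64 for ATP1B1 (SE 0.47, limma adjusted p = 0.017). For AQP3 it was 1.39 (SE 0.57, limma adjusted p = 0.077), and edgeR (2.34, adjusted p = 0.0072) and DESeq2 (2.35, adjusted p = 0.014) on the recovered reads passed it. When either of the blastocyst samples was left out, 1 member, ATP1B3, remained past the threshold. The other stages include the 3 before EGA, so these differences contain the step from 4C to 8C.

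Among 9 other sodium pump subunit genes, 5 had reads and 1, FXYD4, could be tested. It came through the filter on low values by its reads in the blastocysts, so that a difference of this stage from the others was given by the filter. FXYD4, a small subunit that modulates the pump in epithelia of the kidney and colon, had most of its reads in the blastocysts. It had no read in the 10 samples from MII to 16C, 1 and 5 reads in the early morulae, 3 and 5 in the compact morulae, and 78 and 31 in the blastocysts (76.6 and 45.5 CPM). The pooled reads of the blastocysts were at least 347-fold higher than in the 10 samples with no read, against a floor of 3 reads over that group, and the exact interval of the ratio, which also takes in the counting error of the blastocysts, began at 278. From CM to BL its log2 change was 3.68 (SE 0.64, limma adjusted p = 0.0033). It was not called by edgeR (adjusted p = 0.12) or DESeq2 (adjusted p = 0.22), or in a limma fit of the 2 stages alone (adjusted p = 0.13).

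The others had few or no reads. FXYD6 had 56 reads in all, and FXYD3 and ATP1A4 had 4 each. ATP1B4, a beta family gene of muscle, had 50 reads in all. None of these 4 passed the filter.

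Of 11 other aquaporin genes listed, 9 were found, 5 had reads and 1 could be tested. This was AQP4, the main water channel of glia, with 78 reads over all 16 samples and no stage effect (limma adjusted p = 0.52). AQP9 had 18 reads, AQP7 had 7 and AQP6 had 1, and AQP1, AQP2, AQP5 and AQP12B were listed at 0. AQP3 and AQP11 were thus the aquaporin genes with the most reads over all 16 samples together, a statement on reads that takes no account of gene length. Up to 4C, AQP4 had 24 reads, against 5 for AQP3 and 9 for AQP11. In blastocyst replicate 2 it had 16 reads, against 9 for AQP3 and 15 for AQP11.

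Carriers of sodium, protons and chloride, with their regulators, formed a list of 17 genes, of which 15 had reads and 11 were tested. Of these, 10 had a stage effect, beside 66.7% of all loci. The call of SLC4A2, an anion exchanger (limma adjusted p = 0.044), was lost in 16 of 24 alternatives. At the 4C to 8C step 1 gene was higher and 5 were lower, beside 17.7% and 19.1% of all loci. The gene that rose was SGK1, a kinase that raises epithelial sodium transport (log2 change 6.37, SE 0.91, limma adjusted p = 1.7e-04). Between the periods, SGK1 was at 0.601 ± 0.681 CPM in the 6 samples up to 4C and 139.9 ± 115.9 CPM in the 10 later ones (log2 change 6.25, SE 0.45, limma adjusted p = 2.9e-10). It came through the filter by its later samples, which favours this direction. NEDD4L, a ubiquitin ligase that removes sodium channels from the membrane and is itself a target of SGK1, fell at the same step. Its log2 change from 4C to 8C was -4.59 (SE 0.84, limma adjusted p = 9.1e-04). Between the periods, its level was 34.1 ± 18.1 CPM before and 3.63 ± 4.81 CPM after (log2 change -3.85, SE 0.55, limma adjusted p = 3.0e-06). The other 4 that fell from 4C to 8C were SLC12A2, which imports sodium with potassium and chloride, SLC4A4, a sodium bicarbonate transporter, CFTR, a chloride channel, and SLC9A3. At this step limma adjusted p was 0.047 for SLC12A2, 0.0071 for SLC4A4, 0.037 for CFTR and 0.028 for SLC9A3. The 2 8C embryos differed in SLC12A2, at 1.24 and 18.3 CPM, and SLC9A3 went from 14 reads in the 4C embryos to 1 in the 8C embryos. CFTR was at 5.56 CPM or more in each sample up to 4C, at 0 and 2.89 CPM in the 8C embryos, and at 0 in the 8 samples that followed.

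SLC9A3 encodes the sodium/proton exchanger NHE3 of apical membranes, a route by which sodium can enter the epithelium. It had few reads up to 16C (at most 5.99 CPM), none in the 4 morulae, and 127 and 103 CPM in the blastocysts. The pooled reads of the blastocysts were at least 211-fold higher than in the morulae, against a floor of 3 reads over the 4 morulae, and the exact interval of the ratio began at 170.02. Like FXYD4, it came through the filter by its blastocyst values. The step from CM to BL passed (limma adjusted p = 1.5e-04), but not in a fit of the 2 stages alone (limma adjusted p = 0.083). SLC9A3R1, which encodes the scaffold NHERF1 that holds this exchanger at the membrane, was at 78.2 ± 43.0 CPM in the compact morulae and 468 ± 151 CPM in the blastocysts. Its change from CM to BL was 2.47 (log2, SE 0.74, limma adjusted p = 0.075), which 5 of 25 alternatives called (adjusted p from 0.026 to 0.44 over all 25), and it was higher after EGA than before (2.55, SE 0.61, limma adjusted p = 0.0010). With all samples and the limma test, 1 of the 11 carrier genes, SLC9A3, was called from CM to BL, beside 2.92% of all loci higher.

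**Figure D4:**
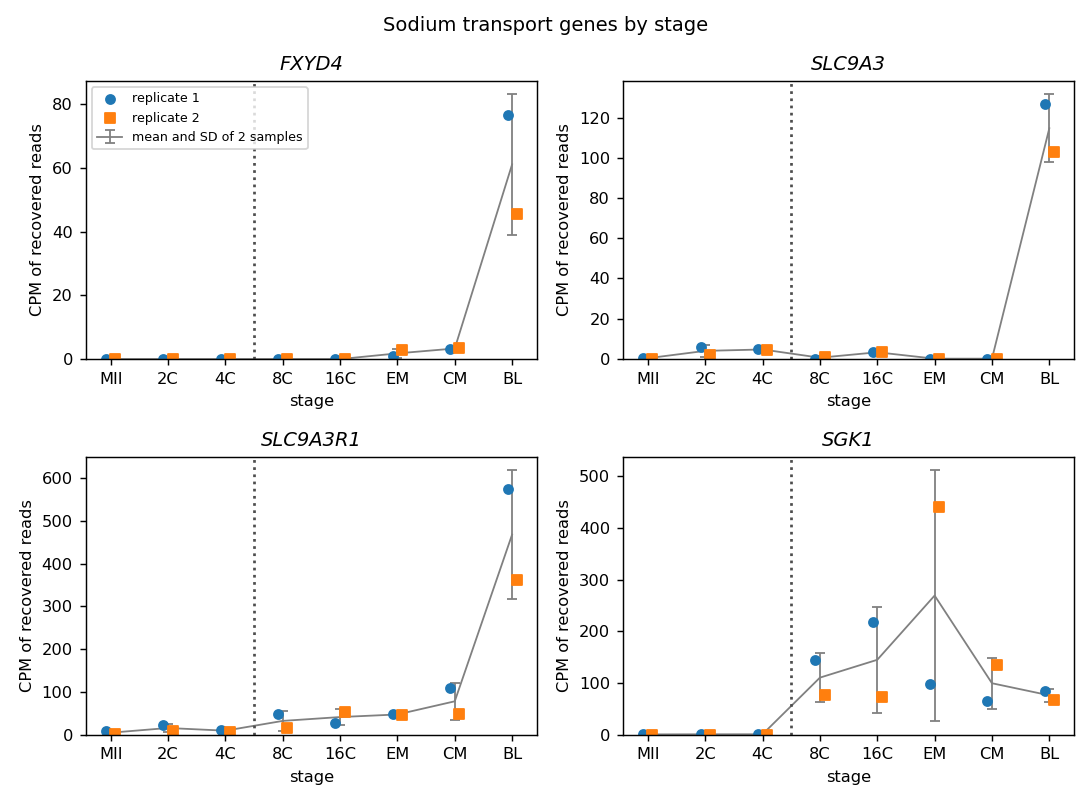
Level in CPM of recovered reads (vertical axes, linear, one scale per gene) of FXYD4, SLC9A3, SLC9A3R1 and SGK1 at 8 stages (horizontal axes); circles and squares are replicates 1 and 2, and the line joins the stage means with SD bars (n = 2). In FXYD4, SLC9A3 and SLC9A3R1 both blastocysts lie above every sample of the other stages, with FXYD4 at 61.1 ± 22.0 CPM there, while SGK1 is highest in early morula replicate 2, at 440.8 CPM.

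Among 5 other P-type pump genes, 4 had reads and 2 were tested, and both had a stage effect, beside 66.7% of all loci. ATP2A2, the calcium pump of the endoplasmic reticulum, had an adjusted p of 0.031 by limma, and ATP2B1, a calcium pump of the plasma membrane, of 0.027. Each missed the threshold in several alternatives, among them the fit without 4C replicate 1 for ATP2A2 (limma adjusted p = 0.065) and total read scaling for ATP2B1 (limma adjusted p = 0.12).

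The genes most like each member over the 16 samples were found by Pearson's r of log2(CPM + 1) among 8365 named loci. For ATP1B1 they were MCF2 (r = 0.98), KCNA5 (0.98) and FAM81B (0.97). UQCRFS1 (0.99) and C6H4orf19 (0.98) were among the 3 most like ATP1B3. For AQP3 they were FSCN1, C5H22orf32 and TWISTNB (0.98 each), and for AQP11 SLC25A3, RPL22L1 and FOLR1 (0.97 each). When Spearman's rho was used, 0 of the 3 genes named for each of ATP1B1, AQP3 and AQP11 stayed among the 3 nearest to it. Between the members, r was 0.94 for ATP1B3 with AQP3, 0.94 for ATP1B3 with AQP11 and 0.93 for AQP3 with AQP11, and between -0.94 and -0.92 for ATP1B1 with each of the other 3. All these values describe libraries that share the step from 4C to 8C.

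Cell type markers were checked in the same samples. The summed level of 10 trophectoderm markers was 19.9 to 50.9 CPM up to 4C, 82.7 to 438 CPM from 8C to CM, and 1591 and 1441 CPM in the blastocysts, where 8 of the 10 had reads and CDX2 and ELF5 were listed at 0. From CM to BL, 6 of the 10 (KRT8, KRT18, KRT19, GATA3, GATA2 and TFAP2A) rose by limma, beside 2.92% of all loci. KRT19 and TFAP2A came through the filter by their blastocyst values, which gave their direction, and 0 loci were called in the 2 stages alone. TFAP2C (log2 change 0.35, SE 0.59, limma adjusted p = 0.82) and TEAD4 (log2 change -2.11, SE 0.81, limma adjusted p = 0.17) did not pass, and both blastocysts were below both compact morulae in TEAD4. The summed level of 4 inner cell mass markers, mostly POU5F1, was 124 to 307 CPM up to 4C and 2677 to 5968 CPM later, and that of 4 hypoblast markers was 5.03 to 22.6 CPM up to 4C and 135 to 605 CPM later, with SOX17 at 0 in 11 of the 16 samples. Both moved at the 4C to 8C step with ATP1B3, AQP3 and AQP11, and their part in those results was not tested. The summed level of 7 oocyte markers, mostly H1FOO and with BMP15 listed at 0 throughout, was 2894 to 10044 CPM up to 4C. It was 4.91 to 56.4 CPM later, except for 8C replicate 2, at 1414 CPM, of which H1FOO made up 1347 CPM. ATP1B1 was 7.70 CPM in that embryo and 12.4 CPM in the other 8C embryo, whose oocyte markers summed to 25.98 CPM. Without 8C replicate 2, all 4 members still passed from 4C to 8C.

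The summed level of 8 cumulus and granulosa cell markers was 79.3 to 322 CPM up to 4C and 0 to 31.7 CPM later. HAS2 was the main contributor, with 2301 reads in all. CYP19A1 had 217 reads, FSHR 53, PTX3 12, INHBA 7 and TNFAIP6 5, and AMH and FOXL2 were listed at 0 in every sample. The sum fell with ATP1B1 at the 4C to 8C step. Among the samples up to 4C it was lowest in MII replicate 1 (79.3 CPM), where ATP1B1 was 450.2 CPM. It was highest in 2C replicate 2 (322 CPM), where ATP1B1 was 301 CPM. The part of these markers in the ATP1B1 result was not tested. The oviduct marker OVGP1 had 113 reads in 2C replicate 1, and oviduct markers summed to at most 2.47 CPM in every other sample. The step from 4C to 8C does not contain that embryo. In the comparison before against after EGA, which does, all 4 members still passed without it. Blood markers summed to 4.95 CPM in 8C replicate 1 and to 0 in every other sample.

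ATP1B1 overlaps NME7 and LOC112441946 in the RefSeq annotation of ARS-UCD2.0, and the sources used here do not say whether reads were counted by strand, so reads of overlapping parts of these genes cannot be told apart. NME7, a nucleoside diphosphate kinase family gene, was at 347 ± 40.7 CPM in MII oocytes, 1741 ± 319 CPM in 4C embryos, 258 ± 83.6 CPM in 8C embryos and 216 ± 59.7 CPM in blastocysts. It was lower after EGA by a log2 change of -1.89 (SE 0.40, limma adjusted p = 3.2e-04), compared with -5.54 for ATP1B1. None of the other 5 members overlaps another gene in that annotation.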

How the data were processed

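RNA-Seq of 16 single bovine oocytes and embryos was analysed, with 2 samples in each of 8 stages taken from the sample labels. Per the labels, RNA was amplified and sequenced with a SOLiD kit. The submitters' processing notes name cutadapt, FastQC, TopHat, Cufflinks and HTSeq, with no versions, and the genome build and the strand setting of the counting are not given in the sources used here. The deposited values are a signal per locus that the authors made by dividing read counts by a size factor per sample. Dividing each column by its smallest value above 0 gave whole numbers for 100% of the values (tolerance 0.01), which were taken as the reads, 607672 to 3379426 per sample.

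CPM of these reads were computed with Python 3.11.15, numpy 2.4.6, pandas 2.3.3 and scipy 1.17.1. The main test was limma 3.58.1 (R 4.3.3, empirical Bayes with trend) on log2(deposited value + 1), after edgeR's expression filter, in a model of 8 stages or of 2 periods, with Benjamini-Hochberg adjustment over all loci kept and a threshold of 0.05. The script was tested on simulated data. The alternatives were TMM or total read scaling, pseudocounts of 0.5 and 5, no filter, a replicate block, the 2 stages alone, each sample left out in turn, and edgeR 4.0.16 (quasi-likelihood) and DESeq2 1.42.0 on the recovered reads. The exact permutation test planned for members too low for the filter was not run, since both had 0 reads in every sample. Ratios of pooled reads carry exact binomial (Clopper-Pearson) intervals of 95%.

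Members and context lists were chosen with earlier results of these data known. Genes were named by a rule: all members, those genes of the lists that had a stage effect or a change from CM to BL or that define their list, and the 3 named loci most like each member. OVGP1, HAS2 and NME7, and the listed genes given by their read totals alone, were named after their values were seen. RefSeq's table of ARS-UCD2.0 served for gene overlap alone, which was found from its coordinates, and no sequence was used. A few genes that these rules would name are not reported here.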

Additional observations from a re-analysis of the deposited data

Results flagged for a closer look

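Of 19 groups of 6 or 10 samples checked for a sample far from the rest, 4 had one. The limits used would flag about 1 in 20 groups if the values of a group came from a single normal distribution. These groups mix stages and several hold values at 0, so that rate does not apply and the flags are descriptive. AQP3 in 4C replicate 2 was at 2.46 CPM, against 0.694 CPM in the nearest of the other 5 samples up to 4C, a difference of 3 reads. SGK1 in early morula replicate 2 was at 440.8 CPM, against 217 CPM in the nearest of the other 9 samples after EGA. CFTR in 8C replicate 2, the embryo with oocyte markers at 1414 CPM, was at 2.89 CPM (3 reads), against 0 in the other 9 samples after EGA. NEDD4L in blastocyst replicate 1 was at 15.7 CPM, against 7.34 CPM in the nearest, the other blastocyst.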

How the results depend on the processing

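The alternatives were applied to 48 results of members, FXYD4, carriers, ATP2A2, ATP2B1 and NME7, which gave 1163 values. Of these values, 1099 kept their direction and side of the threshold, 53 lost a call, 7 gained one and 4 changed sign. The marker genes, AQP4 and the carrier changes from 4C to 8C were not among these results. The sign changes were all those of AQP11 from CM to BL, which no fit called: -0.10 with TMM scaling, -0.068 with edgeR, -0.27 without CM replicate 2 and -0.10 without BL replicate 1 (range with each sample left out -0.27 to 0.45). Members called from 4C to 8C fell from 4 to 2 in the 2 stages alone, and loci from 3560 to 1297. Loci called before against after EGA were 7075 with no filter and 4619 with it. Loci called from CM to BL were 427, 154 with edgeR and 0 with limma on the 2 stages alone, where fewer samples enter and 1773 loci had an unadjusted p under 0.05.

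With each sample left out in turn, loci called ranged from 134 to 623 from CM to BL, 1993 to 3707 from 4C to 8C and 700 to 3454 in BL against the other stages (2886 with all samples). The members called ranged from 3 to 4 from 4C to 8C and from 1 to 3 in BL against the other stages. Without CM replicate 2 the CM to BL loci were 144, and without BL replicate 2 they were 134; without 4C replicates 1 and 2 the 4C to 8C loci were 2042 and 1993; without BL replicates 1 and 2 the BL against other stages loci were 1076 and 700. The log2 ratio difference of ATP1B1 to ATP1B3 ranged from -11.07 to -10.66. Of the calls in either direction, those higher after EGA were 55.2%, and 64.3% under total read scaling; higher from CM to BL were 66.0%, and 46.8% with edgeR and 49.4% with DESeq2; higher from 4C to 8C were 48.1%, and 60.5% with edgeR and 58.5% with DESeq2. For BL against the other stages, 61.2% of the calls were higher, and 78.3% with edgeR, 67.8% with DESeq2, 69.6% under total read scaling and 53.9% under TMM scaling. The cause of these changes was not tested beyond the fewer samples.

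Replicate numbers were no pairing: of 28 pairs of stages, correlations of deviations ran from -0.26 to 0.13 and 1 was over 0.1. The replicate block gave 4 members with a stage effect, 4 changed before against after EGA, 4 from 4C to 8C, 0 from CM to BL and 3 in BL against the other stages, the same counts as without it. With 2 samples a stage and at most 149 reads on ATP1B3, 113 on AQP3 and 76 on AQP11 in a sample, steps after 8C were weakly resolved. AQP8's second locus had no reads, so summing its loci changed nothing.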
